A study of Homo sapiens with 18 samples.

Results

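The HOXB genes were followed through RNA-seq counts of K562 cells, a human erythroleukaemia line. The members were taken by symbol: HOXB1 to HOXB9 and HOXB13, which are 10 of the 24395 genes to which the transcripts in the files were summed. The family was selected on these same counts, with the levels in all 18 libraries in view, so its levels and differences are given as descriptions, and no count of members is offered as independent support. Lentivirus carried a catalytically inactive Cas9 (dCas9), or dCas9 fused to the KRAB repressor domain, into the cells, in most groups with a guide RNA (gRNA) to HS2, an enhancer of the beta-globin locus. The groups of 3 libraries each were KRAB_no_gRNA (dCas9-KRAB, no gRNA), dCas9_CR4 and dCas9_CR10 (dCas9 with the gRNA CR4 or CR10), KRAB_CR4 and KRAB_CR10 (dCas9-KRAB with the same gRNAs), and no_lentivirus (untransduced cells). The lentivirus carried a puromycin resistance gene and was added with 4 µg/ml polybrene, and some 96 hours later puromycin at 1 µg/ml began the selection. The protocol text is the same for every sample, and the labels do not say whether the untransduced cells received polybrene or puromycin. Virus, integration, dCas9 or dCas9-KRAB itself, drug and time in culture can thus not be told apart between the lentiviral libraries and the 3 untransduced ones.

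HOX genes encode transcription factors that bind DNA through a homeodomain, and they sit in clusters whose order along the chromosome follows the order of their activity along the body axis. In blood, HOXA and HOXB genes are active in stem and progenitor cells and fall as cells mature. Trithorax and MLL proteins keep active HOX genes on, Polycomb proteins keep silent ones off, and PBX and MEIS proteins of the TALE class bind DNA together with HOX proteins.

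The members lie on chromosome 17 in numerical order, from HOXB1 to HOXB9, with HOXB13 set apart from the rest. The files use the hg19 build and no annotation of that build was used here, so no coordinates are given. Each member was counted on 1 transcript, among them NM_002145 for HOXB2, NM_024015 for HOXB4, NM_024016 for HOXB8 and NM_024017 for HOXB9. The part of each transcript that the members share is the homeobox, 180 bases that encode the 60 residues of the homeodomain. A pair of homeoboxes is shown for HOXB2 and HOXB9, the members whose levels moved farthest apart below, and a pair for HOXB6 and HOXB7, whose homeoboxes are the most alike. They are coding sequence from the GENCODE 29 transcripts of the same RefSeq accessions, 5′ to 3′ on the transcript strand, at transcript bases 505 to 684 for HOXB2, 640 to 819 for HOXB9, 761 to 940 for HOXB6 and 511 to 690 for HOXB7. Capitals mark the codons of the recognition-helix residues 48 to 51.
HOXB2: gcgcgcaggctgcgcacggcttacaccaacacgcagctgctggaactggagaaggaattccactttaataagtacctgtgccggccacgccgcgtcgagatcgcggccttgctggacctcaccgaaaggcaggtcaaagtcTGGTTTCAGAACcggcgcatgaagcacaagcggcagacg
HOXB9: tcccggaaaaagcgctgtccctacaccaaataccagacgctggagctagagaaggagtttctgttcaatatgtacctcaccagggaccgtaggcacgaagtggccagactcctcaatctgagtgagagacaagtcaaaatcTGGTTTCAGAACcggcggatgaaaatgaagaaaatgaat
HOXB6: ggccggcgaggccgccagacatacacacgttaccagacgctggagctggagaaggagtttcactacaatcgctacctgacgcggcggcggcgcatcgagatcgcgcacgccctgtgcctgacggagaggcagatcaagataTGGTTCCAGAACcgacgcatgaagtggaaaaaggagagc
HOXB7: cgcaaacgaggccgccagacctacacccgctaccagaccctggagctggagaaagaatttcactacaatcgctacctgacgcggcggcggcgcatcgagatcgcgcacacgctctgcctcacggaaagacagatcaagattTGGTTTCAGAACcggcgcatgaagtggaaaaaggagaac

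Over the 45 pairs of members the homeoboxes were 51.1% to 88.9% identical, with a median of 64.4%. HOXB6 and HOXB7 stood at the top with 88.9%, and HOXB4 and HOXB5 followed with 82.8%. The longest run of bases shared without a mismatch between the whole transcripts of a pair was 51 for HOXB6 and HOXB7 and 50 for HOXB4 and HOXB5. The members can therefore be told apart by most of their length, but reads that fall inside those runs cannot be assigned by sequence alone. The handling of such reads is not given in the sources used here. The library preparation does not mark the strand, so reads of a member and of an antisense RNA that overlaps it cannot be told apart either.

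Library totals ran from 22805964 to 34032962 counts, and the HOXB members took 0.0363% to 0.0518% of a library. A filter on low counts kept 14713 genes, among them 8 of the 10 members. All 10 erythroid markers had a median of at least 1 CPM (a count scaled to the size of its library, here with TMM factors), and the defining markers GATA1, TAL1 and KLF1 were present in every library. Markers of other cells were low except EPCAM (median 91.7 CPM), COL1A2 (31.8 CPM) and LYZ (15.9 CPM), while MS4A1 and KRT5 were at 0 in all 18 libraries. The targets of the gRNA check the labels: HBE1 was 61.6 ± 6.20 CPM in KRAB_CR4 and 85.0 CPM in KRAB_CR10 against 457.4 ± 17.8 CPM in KRAB_no_gRNA (means, with SD where given, n = 3 each). The lentiviral libraries numbered 3 stood apart from numbers 1 and 2 in every group, and the 3 untransduced libraries differed among themselves, number 2 the most, so HOXB results that rest on either are given with and without them. Fewer cells of a type and less RNA per cell cannot be told apart in bulk RNA.

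HOXB was the one HOX cluster with high levels in these cells. Its 10 genes summed to 375.2 to 519.6 CPM over the 18 libraries, and 8 of them passed the filter. HOXC summed to 11.8 to 17.5 CPM with 7 of 9 genes tested, HOXD to 0.0607 to 0.93 CPM and HOXA to 0 to 0.321 CPM, and no HOXA or HOXD gene reached the filter. In 6 of the 11 HOXA genes no library held a count. Within HOXB the ends of the cluster were silent or nearly so. HOXB1, a hindbrain gene, had 0 counts in all 18 libraries, which allows up to 3 fragments per library, or 6 counts at 2 counts per fragment. HOXB13, a gene of the prostate and tail end of the body, had 0 to 6 counts per library and a mean of 0.0564 ± 0.0667 CPM (SD, n = 18).

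**Figure D1:**
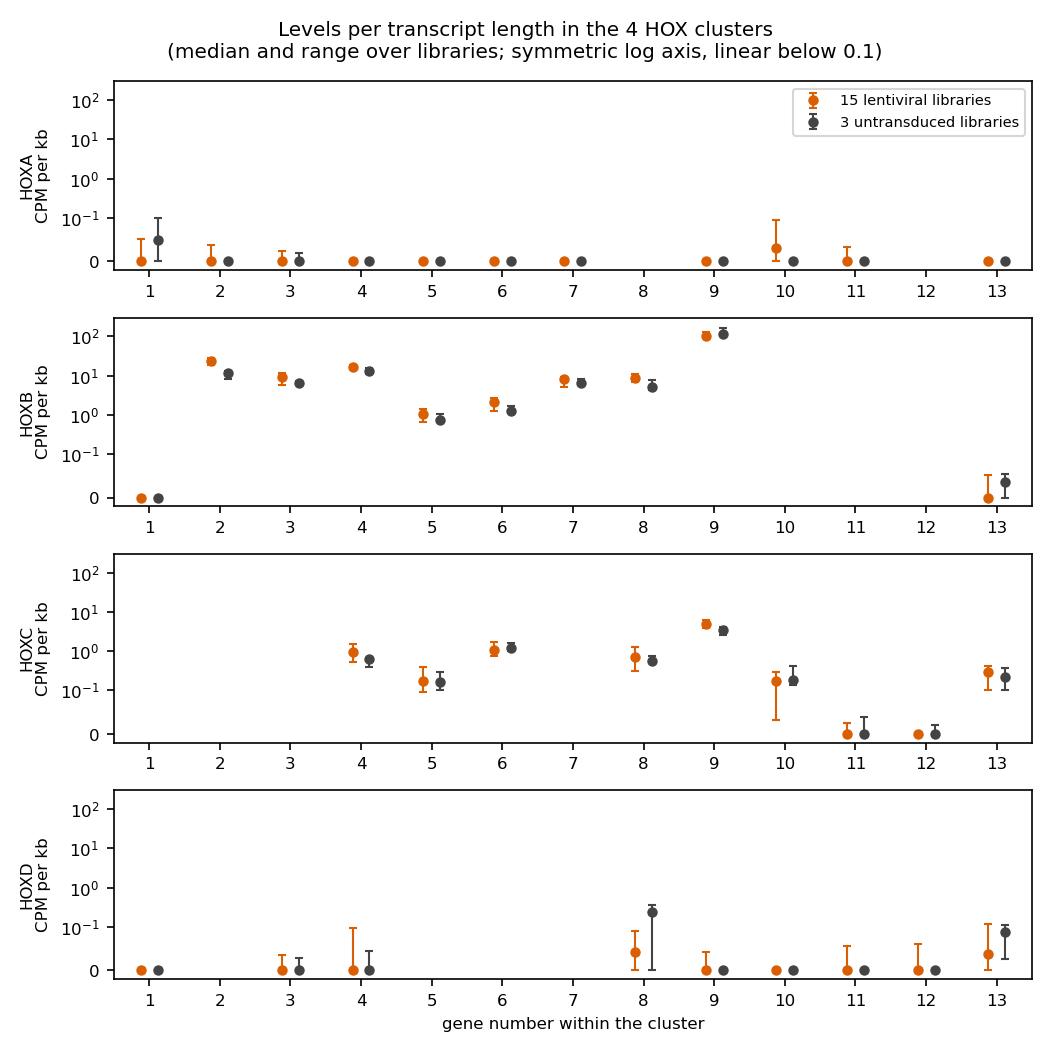
Level per kilobase of transcript (CPM per kb, symmetric log axis) for each gene of the HOXA, HOXB, HOXC and HOXD clusters, by gene number. Points are medians and bars the range over the 15 lentiviral (orange) and 3 untransduced (grey) libraries. The points of HOXB4 are too low, since the length used is longer than its RefSeq gene. HOXB9 is highest, with a lentiviral median of 99.8 CPM per kb, HOXC9 lies between HOXB7 and HOXB6, HOXC6 lies beside HOXB5, and HOXB1 and HOXB13 lie at or near 0.

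To compare genes, levels were divided by the length of the transcript, which gives CPM per kilobase (CPM per kb). HOXB9, a gene of the trunk, was far above the others, with a median of 99.8 CPM per kb in the lentiviral libraries (range 95.1 to 127.1). HOXB2, a gene of the hindbrain and neck, stood at 23.3 (19.0 to 28.5), a range that did not overlap that of HOXB9. HOXB4, known for expanding blood stem cells when overexpressed, stood at 16.8 (15.1 to 18.8). The length used for HOXB4, 3757 bases, is longer than its whole RefSeq gene. Its level per kilobase is thus too low, and no order of HOXB2 and HOXB4 is read from it. HOXB3 at 9.02 (5.64 to 11.5), HOXB8, which can immortalise myeloid progenitors, at 8.77 (6.78 to 10.8) and HOXB7 at 8.21 (5.23 to 8.96) overlapped and have no order beyond their spread. HOXB6 at 2.11 (1.27 to 2.74) and HOXB5 at 1.06 (0.663 to 1.44) were the lowest of the tested members, and their ranges also overlapped. In the untransduced libraries HOXB9 was again highest, with a median of 114.2 CPM per kb (99.8 to 162.1). HOXB4 there stood at 13.2 (10.8 to 15.8), again too low for the same reason, and HOXB2 at 11.8 (8.38 to 12.7).

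The level per kilobase did not follow position along the cluster: the tested genes nearest to its ends, HOXB2 and HOXB9, and HOXB4 were high, and HOXB5 and HOXB6 in the middle were low. HOXB9 alone held 60.3 ± 2.86% of the summed HOXB CPM per kb in the lentiviral libraries (SD, n = 15) and 72.7 ± 5.65% in the untransduced ones (SD, n = 3). These shares ran from 55.6% to 64.5% and from 67.5% to 78.7% and did not overlap. They include the HOXB4 level that is too low. As shares of CPM not divided by length they ran from 58.8% to 67.5% and from 68.6% to 80.5%, also without overlap. How often shares within other sets of genes separate in this way was not computed, and HOXB2 alone already separates the libraries. The shares are thus descriptions of members picked on these same counts. The summed HOXB level was 423.6 ± 27.7 CPM and 431.9 ± 77.0 CPM, a difference within the spread of the untransduced libraries.

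**Figure D2:**
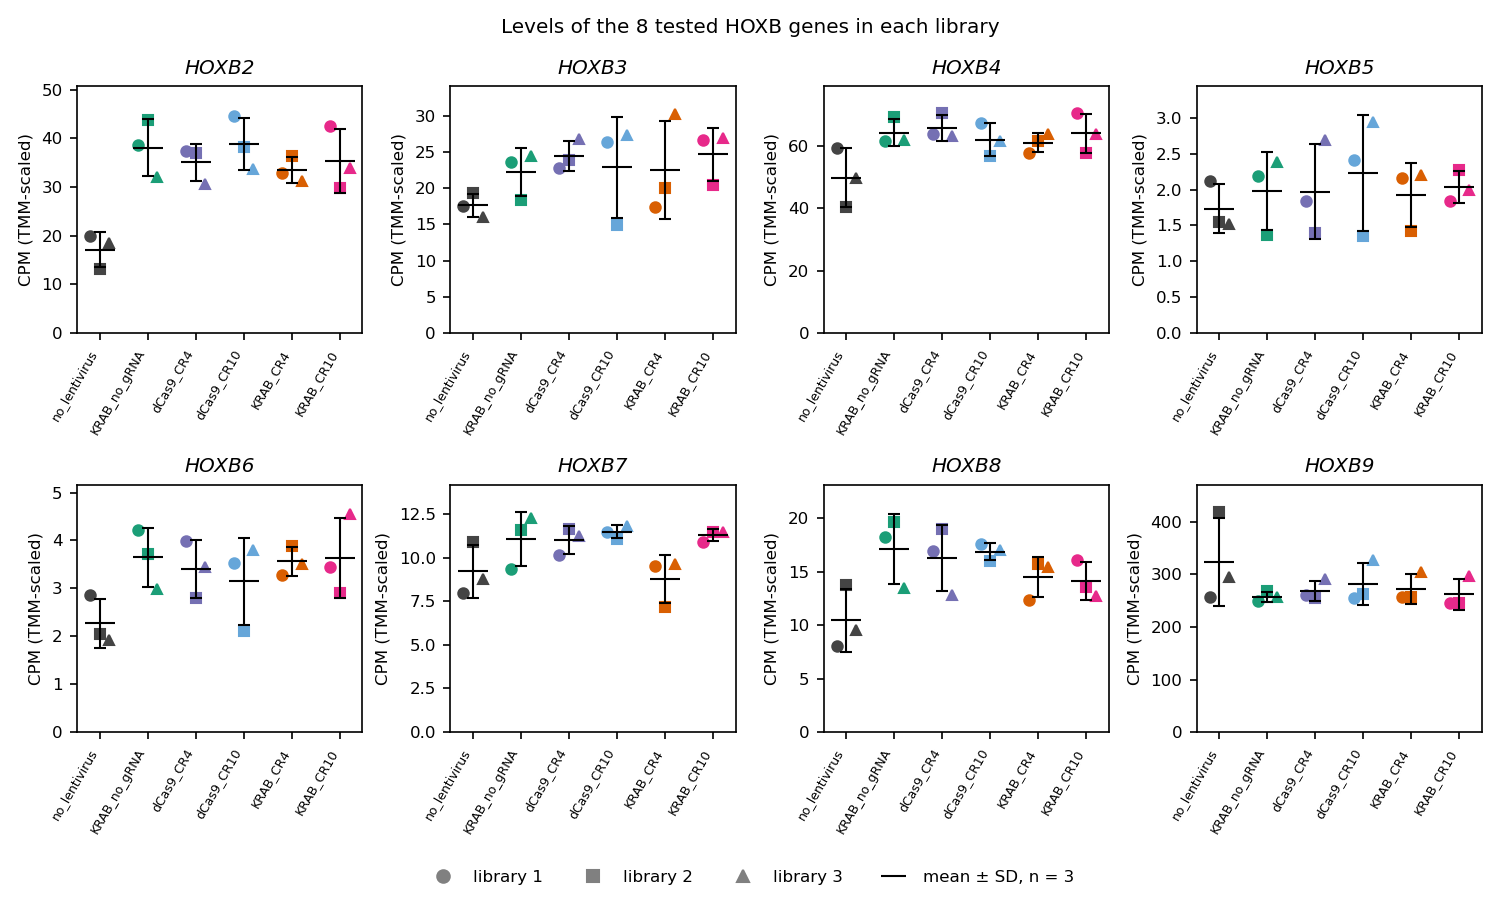
Level (CPM, TMM-scaled, linear axis from 0) of the 8 tested HOXB genes in each of the 18 libraries, by group. Circles, squares and triangles are libraries 1, 2 and 3, and bars are the mean ± SD of 3 libraries. HOXB2 lies between 13.1 and 19.9 CPM without lentivirus and between 29.8 and 44.6 CPM in the 15 lentiviral libraries.

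The comparison with untransduced cells asks what differed between the lentiviral libraries, with or without a gRNA, and the untransduced ones. HOXB2 stood at 19.9, 13.1 and 18.5 CPM in untransduced libraries 1, 2 and 3. In the same order it was 38.6, 43.7 and 32.0 CPM in KRAB_no_gRNA, and 37.5, 37.1 and 30.6 CPM in dCas9_CR4. It was 44.6, 38.2 and 33.8 CPM in dCas9_CR10, 32.9, 36.5 and 31.2 CPM in KRAB_CR4, and 42.6, 29.8 and 33.9 CPM in KRAB_CR10. All 15 lentiviral libraries were above all 3 untransduced ones. The same complete separation upward was seen in 3.32% of the genes tested and downward in 4.24%. The means were 36.2 ± 4.76 CPM (SD, n = 15) and 17.2 ± 3.60 CPM (SD, n = 3). The mean of the 5 lentiviral groups was 1.07 higher on the log2 scale (SE 0.15, 95% interval 0.74 to 1.40, adjusted p = 0.00066 by the edgeR quasi-likelihood test over all genes), a 2.11-fold difference. Without untransduced library 2, the lowest, it was 0.91 (adjusted p = 0.00886, edgeR). Same-numbered lentiviral libraries moved together (correlations of 0.16 to 0.86), and the fit counts all 15 as independent. The SE, interval and p of this and every other difference of the lentiviral mean may thus be too sharp.

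HOXB4 was 59.2, 40.5 and 49.7 CPM in the untransduced libraries and 56.9 to 70.4 CPM, median 63.1, in the lentiviral ones. Of these, 12 of 15 were above all 3 untransduced libraries and none was below. It was 0.35 higher on the log2 scale (SE 0.11, adjusted p = 0.0328, edgeR), but 0.21 without untransduced library 2 (adjusted p = 0.295) and 0.34 without library 3 (adjusted p = 0.103), neither past the threshold of 0.05. HOXB8 was 8.01, 13.7 and 9.58 CPM untransduced and 12.4 to 19.6 CPM, median 16.0, with lentivirus, and 10 of 15 lentiviral libraries were above all 3. It was 0.59 higher (SE 0.17, adjusted p = 0.0222, edgeR). Without untransduced library 1, the lowest for HOXB8, the difference was 0.42 (adjusted p = 0.098), and without library 3 it was 0.53 (adjusted p = 0.106).

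HOXB6, which is also expressed in early red cells, was 2.27 ± 0.507 CPM untransduced (SD, n = 3) and 3.48 ± 0.611 CPM with lentivirus (SD, n = 15), with 13 of 15 lentiviral libraries above. Its log2 difference of 0.61 (SE 0.21) had an adjusted p of 0.0532 in edgeR and 0.0246 in DESeq2, on either side of the threshold. HOXB3 was 17.6 ± 1.65 and 23.4 ± 4.33 CPM (log2 0.40, 95% interval 0.01 to 0.80, adjusted p = 0.125 in edgeR). HOXB5 was 1.73 ± 0.341 and 2.03 ± 0.494 CPM, and HOXB7 9.22 ± 1.53 and 10.7 ± 1.34 CPM. Their log2 differences of 0.23 (−0.33 to 0.79) and 0.21 (−0.07 to 0.49) did not pass either. These members that did not pass also had lentiviral libraries above all 3 untransduced ones: 12 of 15 for HOXB3, 9 for HOXB7 and 8 for HOXB5. The share of all genes with such partial separation was not computed, so counts of this kind are descriptions for every member.

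HOXB9 was the only tested member that was lower on average. It was 257.5, 418.3 and 294.8 CPM in the untransduced libraries. In KRAB_no_gRNA it was 248.6, 267.7 and 257.5 CPM, and over all lentiviral libraries it ran from 245.5 to 328.1 CPM. The 2 sets of libraries overlap, and 8 of the 15 lentiviral ones were below all 3 untransduced ones. The log2 difference was −0.27 (SE 0.12, 95% interval −0.53 to −0.01) with an adjusted p of 0.125 in edgeR. It rests on untransduced library 2: without that library it was −0.04 (adjusted p = 0.882), and without library 1 it was −0.42 (adjusted p = 0.026).

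In all, 3 of the 8 tested members were higher (HOXB2, HOXB4 and HOXB8) and none was lower, where 7.55% of the 14713 genes were higher, 11.2% lower and 18.7% changed in either direction. The median log2 difference of the 8 was 0.38, against 0.01 over all genes, whose middle 50% lay between −0.25 and 0.28. Without untransduced library 3 only HOXB2 remained called. The genes called over the whole table fell from 2755 to 346 without untransduced library 2 and to 1373 without library 3. Against KRAB_no_gRNA alone, 6.63% of genes changed (2.88% higher and 3.76% lower), and the members called were HOXB2, 1.15 higher (SE 0.18, adjusted p = 0.0068), and HOXB8, 0.71 higher (SE 0.21, adjusted p = 0.0478), both by edgeR. With each of the 6 libraries of that comparison left out in turn, HOXB2 was called every time. Fitted on those libraries alone, with no other group in the model, the comparison called 0 genes in place of 976, and HOXB2 was 1.15 higher with an adjusted p of 0.12 (edgeR). HOXB8 was called in none of the 6 fits that left out a library, with adjusted p from 0.053 to 0.16. This comparison shares the untransduced libraries with the one over all lentiviral groups.

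**Figure D3:**
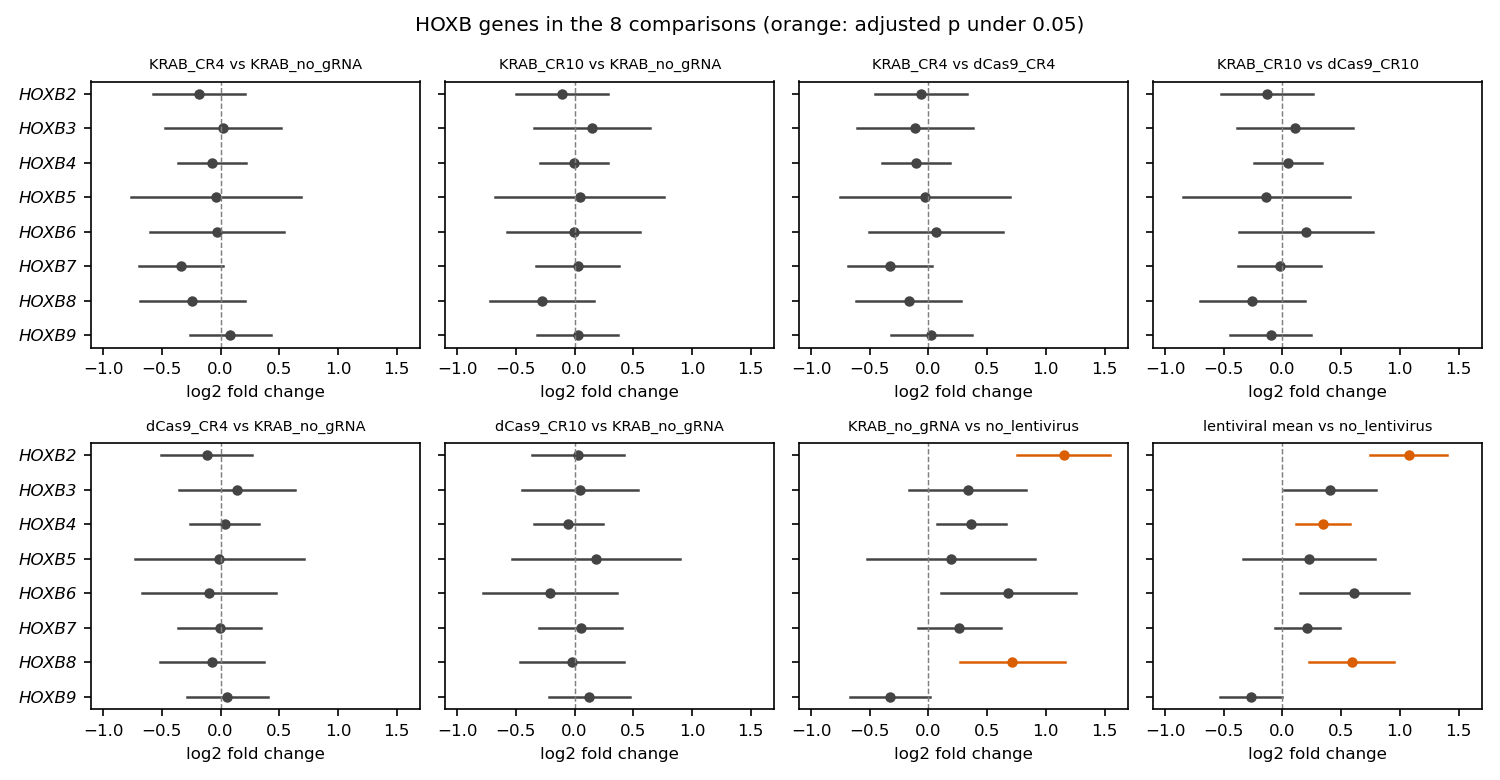
Log2 difference (x axis, points) with 95% interval (lines) of the 8 tested HOXB genes in each of 8 comparisons, from the fit over all 18 libraries. Orange marks an adjusted p under 0.05, which is reached by HOXB2 and HOXB8 in KRAB_no_gRNA against no_lentivirus and by HOXB2, HOXB4 and HOXB8 in the lentiviral mean against no_lentivirus. All points of the other 6 panels lie between −0.33 and 0.20.

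The ratio of HOXB2 to HOXB9 is shown as a description: the pair was picked for its values in this comparison, and HOXB2 alone already separates the libraries. HOXB2 was 7.73, 3.13 and 6.27% of HOXB9 in the untransduced libraries (CPM over CPM, not divided by length), with a mean of 5.71 ± 2.35% (SD, n = 3). In the lentiviral libraries it was 10.2% to 17.5%, with a mean of 13.6 ± 2.45% (SD, n = 15). The lowest lentiviral values, 10.2, 10.3 and 10.5%, belonged to library 3 of KRAB_CR4, dCas9_CR10 and dCas9_CR4, and the highest, 17.5 and 17.4%, to library 1 of dCas9_CR10 and KRAB_CR10. As a description over libraries that share these sets, HOXB2 and HOXB9 had a Pearson correlation of −0.67 over the 18 libraries and −0.39 over the 15 lentiviral ones, in log2 CPM.

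**Figure D4:**
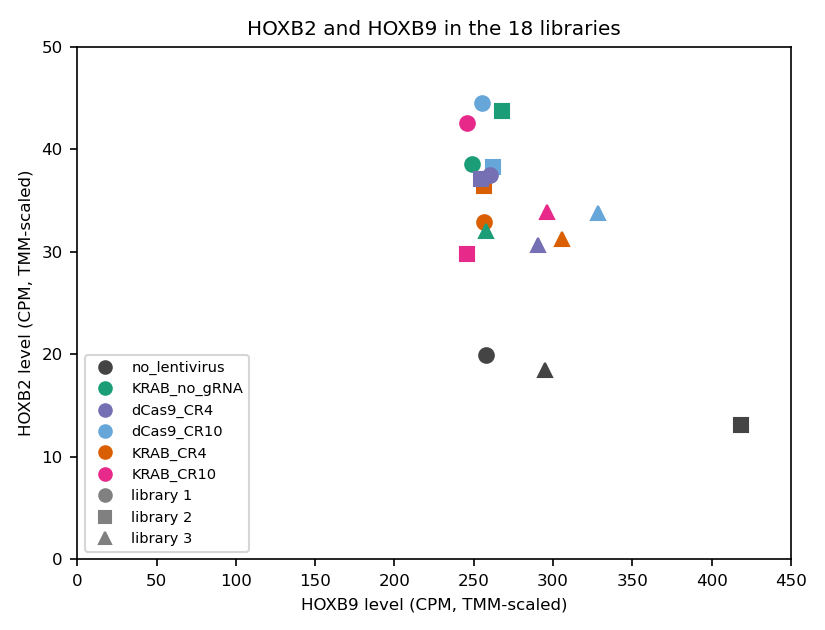
HOXB2 level (y axis, CPM) against HOXB9 level (x axis, CPM) in the 18 libraries, with groups by colour and libraries 1, 2 and 3 by symbol. The 3 untransduced libraries (dark grey) lie below 20 CPM of HOXB2, and untransduced library 2 has both the lowest HOXB2 (13.1 CPM) and the highest HOXB9 (418.3 CPM).

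Among the lentiviral groups the question was whether dCas9-KRAB at the globin enhancer changed genes elsewhere. In the 4 comparisons of a KRAB group that carried a gRNA with KRAB_no_gRNA or with the dCas9 group of the same gRNA, 3 genes were called in each (0.0204% of genes), which were HBE1, HBG2 and HBG1, and 0 HOXB members. In dCas9_CR4 and dCas9_CR10 against KRAB_no_gRNA 0 genes (0%) and 0 members passed by edgeR and by DESeq2, while 66 and 175 genes had an unadjusted p under 0.05. Over the 6 comparisons the 48 tests of members gave log2 differences from −0.33 to 0.20, and none had an unadjusted p under 0.05. Every 95% interval lay within −0.85 and 0.90, and for HOXB2, HOXB4, HOXB7, HOXB8 and HOXB9 within −0.72 and 0.47. These intervals leave room for changes of that size. The comparisons share the KRAB_no_gRNA and dCas9 libraries.

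HOXB7 in KRAB_CR4 had the smallest p of the 48 tests. It was 9.51, 7.17 and 9.62 CPM in KRAB_CR4, with a mean of 8.77 ± 1.38 CPM (SD, n = 3), below the means of the other lentiviral groups (11.01 to 11.47 CPM). In KRAB_no_gRNA it was 9.33, 11.6 and 12.3 CPM, so these groups overlap. In dCas9_CR4 it was 10.1, 11.6 and 11.3 CPM, all above KRAB_CR4. The log2 differences were −0.33 against KRAB_no_gRNA (adjusted p = 0.999, edgeR) and −0.33 against dCas9_CR4 (adjusted p = 1, edgeR). With the replicate block in the lentiviral libraries they were −0.32 (adjusted p = 0.51) and −0.32 (adjusted p = 0.94), and library 1 of KRAB_CR4 was not below library 1 of KRAB_no_gRNA. HOXB8 was 16.1, 13.53 and 12.7 CPM in KRAB_CR10. For all 3 numbers that was lower than in KRAB_no_gRNA (18.3, 19.6 and 13.4 CPM) and in dCas9_CR10 (17.6, 16.0 and 17.0 CPM). The share of all genes with such an order was not computed, so only a description is given for HOXB7 and for HOXB8. With the block its log2 differences were −0.25 (adjusted p = 0.564) and −0.26 (adjusted p = 1, both edgeR), so neither passed. The difference between the KRAB effects of CR4 and CR10 was −0.30 for HOXB7 (SE 0.23, adjusted p = 1, edgeR), and 0 members and 0 of all genes passed in that test (51 genes at an unadjusted p under 0.05).

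Library numbers recur across the lentiviral groups, where number 3 stood apart from numbers 1 and 2. A fit of the lentiviral libraries with the number as a replicate block called 6, 7, 8 and 7 genes in the 4 KRAB comparisons (KRAB_CR4 and KRAB_CR10 against KRAB_no_gRNA, then against dCas9) and 0 in the 2 dCas9 ones, with 0 HOXB members in any of the 6. The lentiviral libraries without the block gave 4, 4, 4 and 5 genes in the KRAB comparisons, and the block over all 18 libraries gave 3 in each, as without it. Members moved with the number. HOXB3 was higher in library 3 than in both others in 5 of 5 lentiviral groups, by a median of 0.23 on the log2 scale. HOXB5, HOXB7 and HOXB9 were higher in 4 of 5 groups, by medians of 0.36, 0.07 and 0.25. For HOXB9 these libraries stood at 290.7, 328.1, 305.6 and 296.4 CPM in dCas9_CR4, dCas9_CR10, KRAB_CR4 and KRAB_CR10, against 245.5 to 261.9 CPM in libraries 1 and 2 of the same groups. HOXB2 was lower in library 3 in 4 of 5 groups, by a median log2 of −0.28, and HOXB8 in 3 of 5, by −0.21. HOXB4 and HOXB6 showed no common direction. Over all genes, library 3 was above both others in at least 4 of the 5 groups for 28.2% and below both for 29.1%, so such a split is common in these libraries. With the lentiviral libraries numbered 3 left out, HOXB2 was 1.13 higher than untransduced (adjusted p = 0.000394), HOXB8 0.63 higher (adjusted p = 0.0107) and HOXB9 −0.36 (adjusted p = 0.0373), and HOXB4 was 0.33 higher with an adjusted p of 0.0533, all by edgeR.

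**Figure D5:**
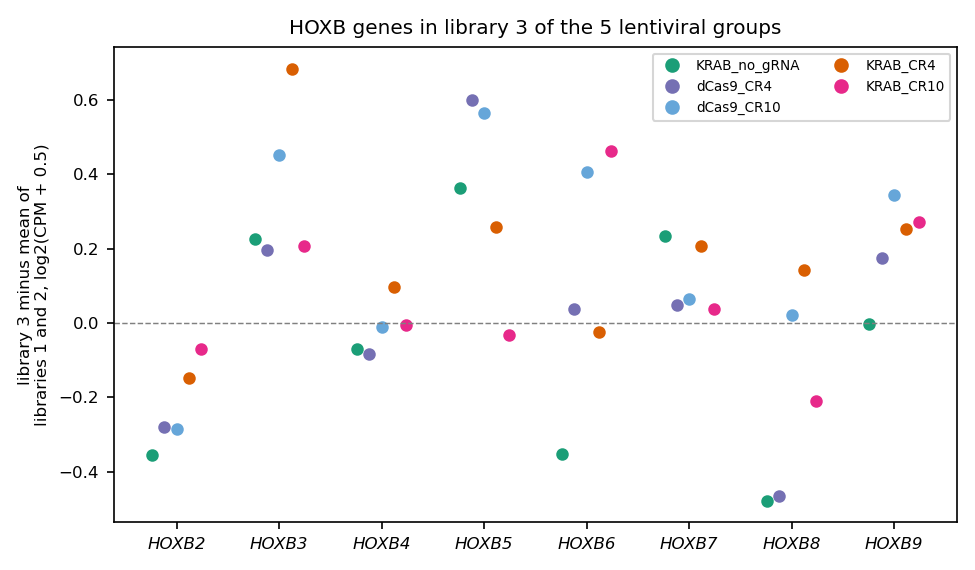
Library 3 minus the mean of libraries 1 and 2 of the same group (y axis, log2 of CPM + 0.5) for the 8 tested HOXB genes in the 5 lentiviral groups (colours). All 5 points of HOXB3 lie above 0 and all 5 of HOXB2 below 0, while HOXB4 stays close to 0.

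The members did not move as a block from library to library. Over the 28 pairs of tested members the Pearson correlation of log2 levels over the 18 libraries ran from −0.68 (HOXB4 and HOXB9) to 0.87 (HOXB2 and HOXB4), and 23 pairs were positive. Over the 15 lentiviral libraries it ran from −0.48 (HOXB2 and HOXB5) to 0.73 (HOXB2 and HOXB8), with 17 positive. These libraries share groups and numbers, so the values are descriptions. The genes whose pattern over the 18 libraries was most like the mean HOXB pattern, among 12596 genes with at least 1 CPM, were TBX1, a T-box transcription factor (r = 0.94), LENG8 (0.93), TAF8, a subunit of the general transcription factor TFIID (0.91), FAM118A (0.91) and SNHG4, a host of small nucleolar RNAs (0.90). Over the 15 lentiviral libraries alone their correlations were 0.80, 0.81, 0.67, 0.76 and 0.69, at ranks 25, 19, 267, 72 and 223 of the 12596. All 5 were higher on average with lentivirus than without, so the likeness over 18 libraries includes that step. TBX1, for example, was 24.0 ± 3.13 CPM with lentivirus and 14.8 ± 0.91 CPM without (SD, n = 15 and 3).

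Around the cluster, the antisense and nested genes were near 0. Of 9 listed, 5 were in the files and 0 passed the filter. HOXB-AS3, whose gene overlaps members of the middle of the cluster, had 0 to 12 counts per library, and MIR10A, MIR196A1 and PRAC1 had 0. The libraries were made from polyadenylated RNA, so the 0 counts of MIR10A and MIR196A1 do not show that these microRNAs are absent. HOXB-AS3 was 0.211 ± 0.113 CPM with lentivirus (SD, n = 15) and 0.0643 ± 0.0661 CPM without (SD, n = 3). The nearest tested flanking gene on the HOXB1 side was SNX11, an endosomal sorting protein, at 33.8 ± 6.75 and 38.5 ± 4.19 CPM (log2 −0.19, SE 0.15, adjusted p = 0.385, edgeR). On the HOXB13 side it was CALCOCO2, an autophagy receptor, at 63.2 ± 15.0 CPM with lentivirus and 69.1, 230.0 and 113.8 CPM in untransduced libraries 1, 2 and 3. CALCOCO2 was 1.13 lower on the log2 scale (SE 0.24, adjusted p = 0.00529, edgeR), but 0.54 lower without untransduced library 2 (adjusted p = 0.212). Of 21 tested flanking genes 1 rose and 4 fell in the lentiviral mean, with a median log2 of −0.05, against 0.01 over all genes, of which 7.55% rose and 11.2% fell. The flanking genes were thus called about as often as genes at large (18.7% in either direction). Examples were SP6, a zinc-finger factor, which fell by 0.65, MRPL10, a mitochondrial ribosomal protein, which fell by 0.38, and OSBPL7, which rose by 0.43.

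In the HOXC cluster 1 of 7 tested genes rose, where 7.55% of all genes did, so that count is no result about the cluster. It was HOXC9, which belongs to the same paralogue group as HOXB9. HOXC9 stood at 5.40, 3.97 and 6.14 CPM untransduced and 7.51 ± 1.08 CPM with lentivirus (SD, n = 15), a log2 rise of 0.54 (SE 0.17, adjusted p = 0.0408, edgeR). It was called in 13 of 25 alternatives, with log2 differences from 0.37 to 0.68. The call was lost when any of the 3 untransduced libraries was left out, when any of several single lentiviral ones was, and with no filter on low counts.

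The partners and keepers of HOX genes were read from the same comparison, in which 7.55% of all genes rose and 11.2% fell. Of 8 tested TALE cofactors, PBX2 rose by 0.41 (274.5 ± 24.4 CPM with lentivirus and 206.9 ± 49.3 CPM without), and MEIS1 and MEIS3 were among those that fell, from 11.1 to 7.30 and from 1.497 to 0.616 CPM on average. Of 19 tested Trithorax and MLL genes 6 rose and 1 fell, and the median log2 difference was 0.27. KMT2B and KMT2D, which methylate histone H3 on lysine 4, rose by 0.64 and 0.61, AFF1, a subunit of the super elongation complex, rose by 0.52, and ASH2L, a core subunit of the methylating complexes, fell by 0.39. Of 29 tested Polycomb genes 1 rose, AEBP2, by 0.41, and the median was 0.04. Of 16 tested regulators of HOX genes 3 fell: RAD21 and SMC1A, subunits of cohesin, by 0.61 and 0.44, and GATA1, the main transcription factor of red cells, by 0.39. The directions of these lists are not independent evidence, for the reason given for the members.

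Many of these list calls were lost when 1 untransduced library was left out, some with a smaller difference and some with one of much the same size. Calls were also lost without single lentiviral libraries, for example those of MEIS1, called in 12 of 25 alternatives, and MEIS3, called in 10 of 24. Of the 21 genes of these lists called in the lentiviral mean, 1 was still called without untransduced library 2 (GATA1), 8 without library 3 and 16 without library 1. Without untransduced library 2 the log2 difference was −0.61 for SP6, −0.32 for MRPL10, 0.37 for OSBPL7, 0.56 for KMT2B and 0.49 for AFF1, close to the values with all libraries. The genes for which it moved by more than 1.5 times included CALCOCO2 (−0.54), RAD21 (−0.35), PBX2 (0.25) and MEIS3 (−0.77, against −1.30 with all libraries). In that same fit HOXB2 kept its call. Against KRAB_no_gRNA alone the calls in these lists included CALCOCO2, GATA1, RAD21 and SMC1A, all 4 lower in KRAB_no_gRNA (log2 −1.29, −0.46, −0.67 and −0.48), and each of these lost its call without untransduced library 2 and without library 3. CALCOCO2 was −0.71 without library 2 and −1.42 without library 3, and RAD21 was −0.42 and −0.72. All 4 also lost their calls with only the groups compared, without KRAB_no_gRNA library 1 and without KRAB_no_gRNA library 2. CALCOCO2, RAD21 and SMC1A lost theirs without KRAB_no_gRNA library 3 as well. GATA1 stayed between −0.57 and −0.42 in all 14 alternatives. No gene of these lists was called in the 6 comparisons among lentiviral groups.

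Some markers of cell type also differed on average between the lentiviral and untransduced libraries, though the ranges of every summed level below overlapped. The summed level of 6 monocyte and granulocyte markers was 11.5 to 28.8 CPM with lentivirus and 26.9 to 39.1 CPM without. LYZ made up most of it and was lower with lentivirus (log2 −0.89, adjusted p = 0.0303, edgeR). The call of LYZ was not followed in the alternatives, so its dependence on single libraries is not known. ITGAM ran from 0 to 1.74 CPM, with a mean of 0.278 CPM with lentivirus and 0.907 CPM without. CSF1R reached 0.307 CPM (means 0.135 and 0.0647 CPM), and CD14, MPO and ELANE stayed under 0.3 CPM in every library. The 6 lymphoid markers summed to 4.93 to 9.60 and 8.37 to 12.4 CPM with 2 of 6 at a median of at least 1 CPM, and the 6 epithelial or fibroblast markers to 114.9 to 143.9 and 103.7 to 126.1 CPM. The 10 erythroid markers summed to 2193 to 4604 and 3102 to 4761 CPM, a sum that includes the globin genes that were lower with dCas9-KRAB and a gRNA. The part of these differences in the HOXB values was not tested. P-values measure the spread between these libraries, since the labels do not say whether the 3 untransduced libraries came from separate cultures.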

How the data were processed

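RNA-seq was read in 18 libraries of K562 cells in 6 groups of 3, grouped by the sample titles. The authors deposited raw counts per RefSeq transcript for each library, 40709 transcripts in each. Per the submitters' processing notes Bowtie2, SAMtools, Picard, R 3.1.2, DESeq and hg19 were used, and the counting tool, annotation release and handling of shared reads are not given in the sources used here. Per the labels' protocols polyadenylated RNA was made into cDNA and cut with a transposase, which does not mark the strand. No deposited count was odd (0 odd values), so each fragment appears to have been counted as its 2 mates, and halved counts were an alternative. Reads carry no molecular identifiers, so limits from counts cover counting error only.

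Transcripts were summed to 24395 genes: 39324 matched the RefSeq table of GRCh38 and 517 GENCODE 29, used for names, transcript lengths, homeobox sequences and gene order only, and 868 kept their accession. The filterByExpr function kept 14713 genes with 99.97% of the counts. TMM factors were computed, and glmQLFit and glmQLFTest of edgeR 4.0.16 (R 4.3.3) gave the quasi-likelihood tests, in 1 fit of 6 group means over all 18 libraries, with 12 residual degrees of freedom, a biological coefficient of variation of 21.6%, Benjamini-Hochberg adjustment over all genes tested and a threshold of 0.05. The lentiviral mean weights its 5 groups equally. The standard error is the fold change divided by the root of F, and the t distribution on the residual degrees of freedom gives the 95% interval. CPM are TMM-scaled. Log2 values outside the fit use a pseudocount of 0.5. The test was also run on simulated counts, drawn independently for each library around a common mean per gene, with set changes in some genes. Those counts hold no pairing and no library that stands apart, so that run does not vouch for the calls here. The alternatives were RLE factors, no filter, a mean of at least 50 counts, only the groups compared, replicate blocks, halved counts, DESeq2 1.42.0, leaving out the lentiviral libraries numbered 3, and leaving out each library.

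Whether numbers pair libraries was checked by correlating deviations from group means over 12604 genes. All 30 same-numbered pairs of lentiviral libraries were above 0.1 (0.16 to 0.86), against 18 of 60 different-numbered pairs and 5 of 15 same-numbered pairs with an untransduced library. The numbers, from the titles, were therefore read as pairing the lentiviral libraries only. The main fit does not take this pairing into account.

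The members and lists were chosen with earlier results of these data known. Named were the members, up to 4 called genes of each list with the smallest p, the nearest tested flanking genes, the globin genes and markers that check the labels, and the 5 genes most like the mean HOXB pattern. Some genes that this rule names are not reported here.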

Additional observations from a re-analysis of the deposited data

How the results depend on the processing

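HOXB2 was called in 25 of 25 alternatives for the lentiviral mean (log2 0.91 to 1.18) and in 13 of 14 against KRAB_no_gRNA alone (0.98 to 1.25), missing with only the groups compared (1.15, adjusted p = 0.12). HOXB8 was called in 23 of 25 and 6 of 14, HOXB4 in 21 of 25 and HOXB6, not called in the report, in 7 of 25. No result reversed, and none of 240 alternative values of a member's group level moved by more than 1 SD. For the lentiviral mean a fit on only the groups compared is the same fit.

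In the comparisons among lentiviral groups "the block" means the replicate block in the lentiviral libraries only; over all 18 libraries the replicate block left each of the 4 KRAB counts at 3. Genes called in KRAB_CR4 against KRAB_no_gRNA were 6 with the block and 6 by DESeq2. In KRAB_CR10 against KRAB_no_gRNA they were 7 with the block and 1 without the lentiviral libraries numbered 3. In KRAB_CR4 against dCas9_CR4 they were 8 with the block and 5 by DESeq2. In KRAB_CR10 against dCas9_CR10 they were 7 with the block, 5 with lentiviral libraries only, 1 with only the groups compared, 1 without numbers 3, and 1 to 3 with single libraries left out. In KRAB_no_gRNA against no_lentivirus they were 0 with only the groups compared, 2621 with the block over all 18 libraries, 1617 without numbers 3, 1974 by DESeq2 and 27 to 2447 with single libraries left out. The members called there were 1 with no filter, 0 with only the groups compared and 1 to 3 with single libraries left out. In the lentiviral mean 4196 genes were called with the block over all 18 libraries, 4439 without numbers 3 and 346 to 3629 with single libraries left out, and 1 to 4 members with single libraries left out. The cause of these moves was not tested, and some of these fits also hold fewer libraries. The block changed no other call of a member, except that HOXB6 passed in the lentiviral mean (adjusted p = 0.0287). Where 1 library of a group was left out, its other libraries were taken to vary like the other groups.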
